A study of Mus musculus with 35 samples.

Results

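Translation initiation and elongation factors are the proteins that load ribosomes onto mRNA and move them along it. The members were the genes of the MG-U74Av2 array whose single assigned symbol begins with Eif1 to Eif6, Eef1, Eef2 or Mtif, or is Bzw1 or Bzw2, without the X- and Y-linked Eif2s3x and Eif2s3y. The rule found 67 probe sets of 50 genes, of 8251 genes with a probe set of a single symbol, and for each gene the probe set with the highest mean log2 level over all 35 arrays was taken. The rule itself uses levels in no other way, but it was set with earlier results of these data known.

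The study amplified mRNA of sorted bone marrow cells of male C57Bl/6 CD45.1 mice, 7 to 9 weeks old and otherwise unmodified, by global single cell RT-PCR and measured it on arrays. SP cells (the side population, which effluxes Hoechst dye and holds the hematopoietic stem cells) were Sca-1 positive and Gr-1 negative, and were taken from the lower (LSP) or the upper (USP) part of the SP tail. CD8 cells were CD3 and CD8 positive cytotoxic T lymphocytes of the marrow. The ten-cell experiment had 3 LSP samples (A, B and M), 3 USP samples (N, O and Z) and 3 CD8 samples (B, C and D), each a pool of amplifications of 10 cells run on 2 arrays. The single-cell experiment had 12 single SP cells (A to L) from the tip of the tail and 5 single-cell-equivalents (SCE, A to E), which were 4 µl aliquots of 160 µl of a lysate of 40 SP cells, and these 17 were hybridised to an array apiece. The SCE shared 1 lysate, so their spread is that of the amplification and of sampling molecules, and no label ties a sample to a mouse. The methods of the study give 1 mouse as the source of marrow for single or ten-cell experiments. Which samples share a mouse is not given. What was hybridised is amplified product of the 3' ends of the mRNAs, and in pools of cells fewer cells with a transcript and less transcript per cell cannot be told apart.

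In eukaryotes the cap of an mRNA is bound by eIF4E, which sits with the scaffold eIF4G and the helicase eIF4A. eIF2 brings the initiator tRNA as a complex with GTP, is recharged by the exchange factor eIF2B, and is shut off by kinases that phosphorylate its alpha subunit. The large eIF3 complex holds the small ribosomal subunit, and eEF1 and eEF2 then drive elongation. Of the 50 members, 8 were elongation factors or their kinase, 8 belonged to cap binding and the helicase, 3 restrained cap binding, 10 acted at the start codon or in the ternary complex, 4 were eIF2B subunits, 4 were eIF2 alpha kinases and 10 were eIF3 subunits. The others were Mtif2, the mitochondrial initiation factor, Eif6, which keeps the large ribosomal subunit from joining too early, and Eef1akmt1, a methyltransferase whose symbol matched the rule.

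The populations carried their own markers. The SP and stem cell genes Lmo2, Tal1, Tie1 and Meis1 were above the floor (a log2 level of 7, to which lower ten-cell levels were set) in all 6 SP samples and at the floor in all CD8 samples, while of 6 T cell genes Cd3d, Cd3g, Cd8a and Cd8b1 were at the floor in all SP samples and above it in all CD8 samples. The remaining T cell genes were less cleanly parted: Cd3e was above the floor in 1 SP sample (8.59, beside 10.84 to 11.41 in CD8 samples), and Zap70 in 1 SP and 2 CD8 samples. Of 6 granulocyte genes, 4 were above the floor in an SP sample and 2 in a CD8 sample, their summed intensity was 1393 to 12231 in SP and 768 to 964 in CD8 samples, and Mpo and Elane were at the floor in both. Of 4 B cell genes on the array, 3 were above the floor in each population, with sums of 512 to 1656 in SP and 512 to 9019 in CD8 samples. The arrays were all scaled by the authors to a like mean, and 9 of 12 SP ten-cell arrays held 24.6% to 32.1% negative intensities while no CD8 array held any. The part of these differences in the results on SP against CD8 was not tested.

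In the ten-cell samples 41 of 50 members were above the floor on at least 1 of 18 arrays and could be tested, and 18 were above it in all 9 samples. The 9 members at the floor throughout (18%, against 45.1% of all probe sets) were Bzw1, Eef1a2, Eef1g, Eif2ak3, Eif2d, Eif3f, Eif4enif1, Eif4h and Eif5a, none of which reached a log2 level of 9 in any single cell. The rule kept the highest probe set of each gene and all probe sets were counted without such a choice, so these shares are not like for like. Over the 35 arrays the highest mean levels belonged to Eif3k (12.68), Eef1d (12.25), Eif1ax (11.55), Eef1a1 (10.73) and Eef2 (10.53). Levels of different genes come from different probes, and these means describe the signals, not the order of the transcripts.

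Levels of both eIF4A helicases and of Eif2a were higher in SP than in CD8 samples. The comparison asks in what stem cells differ from mature, equally resting lymphocytes. In the limma fit, with p-values adjusted over all 6823 probe sets tested, 3 of 41 members were higher in SP and 1 was lower. Over all probe sets 5.83% passed, 2.83% higher and 3% lower in SP, so that the members' share (9.76%) lay above the background by few genes. The median difference of the 41 members was -0.16 on the log2 scale, with 16 above and 25 below 0, beside 0.04 for all probe sets tested.

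Eif2a encodes a factor that can deliver the initiator tRNA without being a subunit of eIF2. Its level was 9.63, 10.28 and 10.05 in LSP A, B and M, 9.67, 9.95 and 9.28 in USP N, O and Z, and 8.18, 8.53 and 7.88 in CD8 B, C and D. All 6 SP samples lay above all CD8 samples, and the difference was 1.62 ± 0.23 (SE) on the log2 scale, 3.07-fold (limma adjusted p = 0.0086). Eif2a passed in 14 of 17 alternative fits, and missed, among others, when duplicate arrays were kept as a random block (adjusted p = 0.062) and on arrays without negative values (0.067), where 1 LSP and 1 USP sample are left.

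Eif4a1 and Eif4a2 encode the 2 cytoplasmic eIF4A helicases, which unwind mRNA ahead of the scanning ribosome. Each was read by 1 probe set, so no second could be compared. Eif4a1 was at 9.57, 9.22 and 9.73 in LSP, 9.19, 9.80 and 10.15 in USP, and 8.52, 8.51 and 8.16 in CD8 samples. Eif4a2 was at 8.71, 9.0 and 9.39 in LSP, 8.95, 9.24 and 9.42 in USP, and 7 (the floor), 8.34 and 7.43 in CD8 samples. Neither gene had overlapping populations. The differences were 1.22 ± 0.23 for Eif4a1 (2.32-fold, limma adjusted p = 0.031) and 1.53 ± 0.31 for Eif4a2 (2.89-fold, adjusted p = 0.036). Each passed in 6 of 17 alternative fits and stood near the threshold: after quantile normalization the adjusted p was 0.077 for Eif4a1 and 0.090 for Eif4a2, Eif4a1 missed the threshold without LSP A, LSP M, USP O or any 1 CD8 sample (adjusted p of 0.054 to 0.121), and Eif4a2 without LSP B, LSP M, any 1 USP sample, CD8 B or CD8 D (0.059 to 0.136). With duplicate arrays as a random block the adjusted p was 0.297 for Eif4a1 and 0.0094 for Eif4a2. Both differences were 1.01 or more in every fit run.

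No other member of cap binding passed. Eif4b, a cofactor that stimulates eIF4A, was at 8.41, 7.32 and 7.64 in LSP, 7.74, 9.14 and 7 in USP, and 9.43, 8.90 and 10.17 in CD8 samples, a difference of -1.63 ± 0.53 (limma adjusted p = 0.152). The populations overlapped by 1 USP sample. Eif4b passed with duplicate arrays as a random block (adjusted p = 0.025), and its 3 other probe sets did not repeat the difference, with 2 at the floor and 1 at 0.17. Among the rest, Eif4e2, Eif4g2 and Eif4g3 differed by 0.63, 0.59 and 0.25 and Eif4e by -0.03, and none passed.

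The promoter stretches of the genes that rose, with that of Eif2b4, whose difference had the other sign, and those of Eif3k and Mtif2, whose spread between single cells is given below, are shown as RefSeq gives them for GRCm38.p6 (the positions of the probes were not used here), 120 bases up to the last base before the transcript start that its promoter table uses, on the strand of the gene. This start lies at the edge of the annotated gene in Eif2a, Eif4a1, Eif4a2 and Eif2b4, but 2 bases inside the gene in Eif3k and 1045 bases inside it in Mtif2. Capitals mark a GC box (GGGCGG), an E-box (CACGTG) or an ETS core (CCGGAAG), on either strand.
Eif2a, chr3:58525701-58525820, plus strand: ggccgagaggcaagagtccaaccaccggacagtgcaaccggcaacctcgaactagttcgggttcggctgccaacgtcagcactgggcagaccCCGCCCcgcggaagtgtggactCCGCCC
Eif4a1, chr11:69672424-69672543, minus strand: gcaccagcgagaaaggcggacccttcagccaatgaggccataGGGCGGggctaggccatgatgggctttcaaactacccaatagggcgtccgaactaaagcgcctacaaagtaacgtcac
Eif4a2, chr16:23107348-23107467, plus strand: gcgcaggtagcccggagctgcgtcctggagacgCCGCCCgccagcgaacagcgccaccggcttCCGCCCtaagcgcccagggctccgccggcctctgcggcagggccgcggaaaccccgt
Eif2b4, chr5:31193140-31193259, minus strand: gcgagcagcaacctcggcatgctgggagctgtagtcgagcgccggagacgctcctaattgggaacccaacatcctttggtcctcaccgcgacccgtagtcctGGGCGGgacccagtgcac
Eif3k, chr7:28981889-28982008, minus strand: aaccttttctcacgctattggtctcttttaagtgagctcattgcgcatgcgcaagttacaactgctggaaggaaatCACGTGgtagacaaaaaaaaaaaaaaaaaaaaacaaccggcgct
Mtif2, chr11:29526277-29526396, plus strand: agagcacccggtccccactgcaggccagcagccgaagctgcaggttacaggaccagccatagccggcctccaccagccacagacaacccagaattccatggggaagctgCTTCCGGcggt

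A promoter was matched for 42 of 50 members, 1 start per gene. In the 250 bases before the start, 28 of the 42 (66.7%) held a GC box, against 32.9% of 27025 promoters in the table, 9 (21.4%) an ETS core against 7.05%, 8 (19.0%) an E-box against 6.05%, and 3 (7.14%) a TATA box (TATAAA) against 13%. Motifs were searched separately, on both strands, and may share letters. The 3 genes that rose and Eif2b4, which did not, all held a GC box. Eif2b5, the member that passed as lower in SP, held none. These letters describe the windows and carry no evidence that a factor was bound.

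Eif2b5, the catalytic subunit of eIF2B, passed the test in the other direction. It was at 7.53, 7.38 and 7 in LSP, 7.01, 7 and 7.04 in USP, and 7.65, 7.76 and 7.84 in CD8 samples. All SP samples were below all CD8 samples but at or just above the floor, which sets the size of the difference, -0.59 ± 0.13 (limma adjusted p = 0.046). With a floor of 8 it was -0.01 (adjusted p = 0.938), the second probe set of the gene differed by 0.21 (adjusted p = 0.952), and the call was lost without LSP B, any 1 USP or any 1 CD8 sample (adjusted p of 0.075 to 0.170) and with duplicate arrays as a random block (0.434). Eif2b4, the delta subunit, showed a wider gap that missed the threshold: 7.30, 7 and 7.17 in LSP, 7, 9.49 and 7 in USP, and 10.70, 10.22 and 8.81 in CD8 samples. USP O alone overlapped the CD8 samples. Its difference was -2.42 ± 0.67 (limma adjusted p = 0.098), and it passed without USP O (-2.83, adjusted p = 0.020) and with duplicate arrays as a random block (0.0093).

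**Figure D1:**
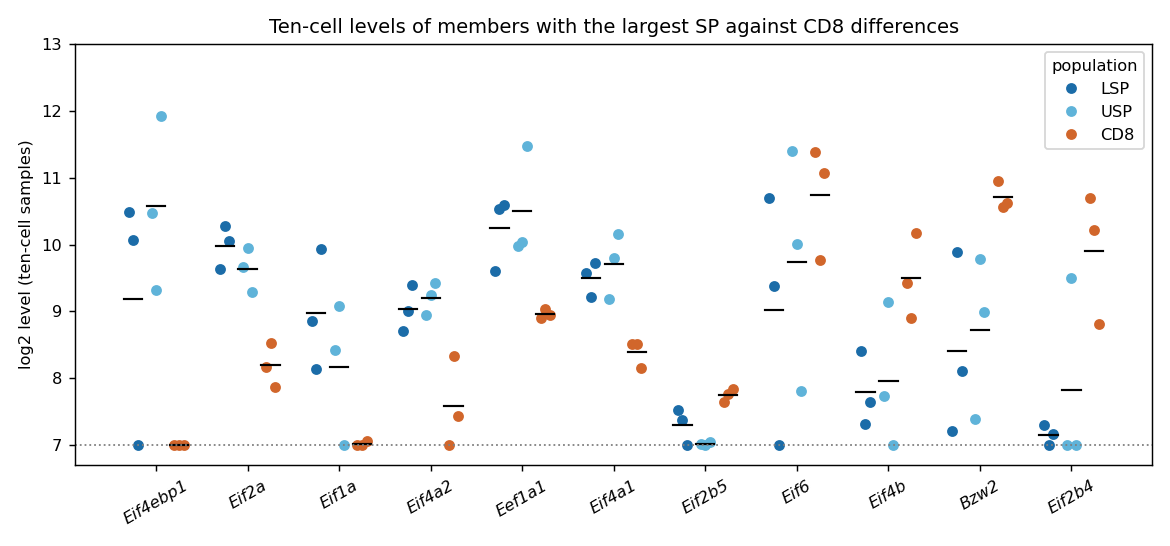
Log2 level in each ten-cell sample (y axis; each point is the mean of 2 arrays, black lines are population means, the dotted line is the floor of 7) for the 10 members with the largest SP against CD8 differences and Eif2b5, in order of the difference. The SP and CD8 points of Eif2a, Eif4a1, Eif4a2, Eef1a1, Bzw2 and Eif2b5 do not overlap, and all 3 CD8 points of Eif4ebp1 lie on the floor.

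The largest difference of all belonged to Eif4ebp1, the inhibitor that holds eIF4E away from eIF4G until mTOR phosphorylates it. It was at 10.49, 10.07 and 7 in LSP, 10.47, 9.33 and 11.92 in USP, and at 7 in every CD8 sample. All SP samples but LSP M were well above the floor on which the CD8 samples lay. With levels set to the floor the difference was 2.88 ± 0.88 and missed the threshold (limma adjusted p = 0.129), and its size moved with the floor, to 3.44 with a floor of 6 and 2.05 with a floor of 8. Among other fits it passed without LSP M (3.43, adjusted p = 0.023) and with duplicate arrays as a random block (0.011). Its relative Eif4ebp2 was at 9.39, 9.61 and 10.26 in LSP, 10.79, 9.95 and 7.61 in USP, and 10.17, 11.16 and 10.85 in CD8 samples, a difference of -1.12 ± 0.68 (adjusted p = 0.484).

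Among the factors of the start codon, the closest to Eif2a in size was Eif1a, which promotes scanning. It was at 8.86, 8.14 and 9.93 in LSP, 8.42, 9.08 and 7 in USP, and 7, 7 and 7.06 in CD8 samples, so that USP Z alone fell among the CD8 samples (1.55 ± 0.53, limma adjusted p = 0.173). Its second probe set differed by 0.41. Eif1ax, its X-linked near-copy, differed by -0.40 in the chosen probe set and by 1.80 in the second (limma adjusted p of 0.736 and 0.293). Whether the probes of Eif1a and Eif1ax cross-hybridise was not tested. Bzw2, an eIF5-mimic protein that competes with eIF5 for eIF2, was lower in SP than in CD8 samples. Its level was 7.22, 9.89 and 8.11 in LSP, 7.40, 9.79 and 8.99 in USP, and 10.94, 10.57 and 10.62 in CD8 samples. The populations did not overlap, but SP samples spanned over 2 log2 units, and the difference of -2.14 ± 0.70 did not pass (limma adjusted p = 0.155), though it did with duplicate arrays as a random block (0.038). On arrays without negative values, with 1 LSP and 1 USP sample left, it was -1.24. In its chosen probe set Eif2s2, the beta subunit of eIF2, varied as widely within populations as between them. It ran from 7 to 10.62 in SP and 7.46 to 10.74 in CD8 samples (-0.54 ± 1.03). The second probe set of Eif2s2 differed by 2.13, with the other sign (limma adjusted p = 0.177). There the means were 9.13 in SP and 7, the floor, in CD8 samples.

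Of the elongation factors, Eef1a1, which brings aminoacyl tRNA to the ribosome, was at 9.61, 10.53 and 10.59 in LSP, 9.97, 10.04 and 11.47 in USP, and 8.90, 9.04 and 8.95 in CD8 samples. The 2 populations were apart, with a difference of 1.40 ± 0.39 that missed the threshold (limma adjusted p = 0.099). On arrays without negative values, with 1 LSP and 1 USP sample left, it was 2.17. Eef2, the translocase, and Eef1d, a subunit of the eEF1 exchange factor, were high everywhere, at 10.15 to 10.93 and 10.50 to 12.71 in SP samples and 10.65 to 10.83 and 12.11 to 12.39 in CD8 samples. Their differences were -0.23 ± 0.22 and -0.38 ± 0.46.

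No eIF3 subunit passed: of 9 tested, 2 had a difference above 0 (Eif3a 1.06 ± 0.44 and Eif3b 0.90 ± 0.36) and 7 below, with a median of -0.33. Eif3k was at 12 to 12.76 in SP and 12.34 to 12.89 in CD8 samples (-0.36 ± 0.21). Eif6 ranged from 7 to 11.40 in SP and 9.76 to 11.39 in CD8 samples (-1.36 ± 1.04), and Mtif2 from 7 to 12.59 and 9.75 to 11.86 (-0.50 ± 1.23). The kinases Eif2ak1, Eif2ak2 and Eif2ak4 lay between 7 and 8.33 in all 9 samples. In all, 6 of 41 members (14.6%) had SP and CD8 levels that did not overlap, beside 11.3% of all probe sets, and 12 (29.3%) had an unadjusted limma p under 0.05, beside 18.5%.

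**Figure D2:**
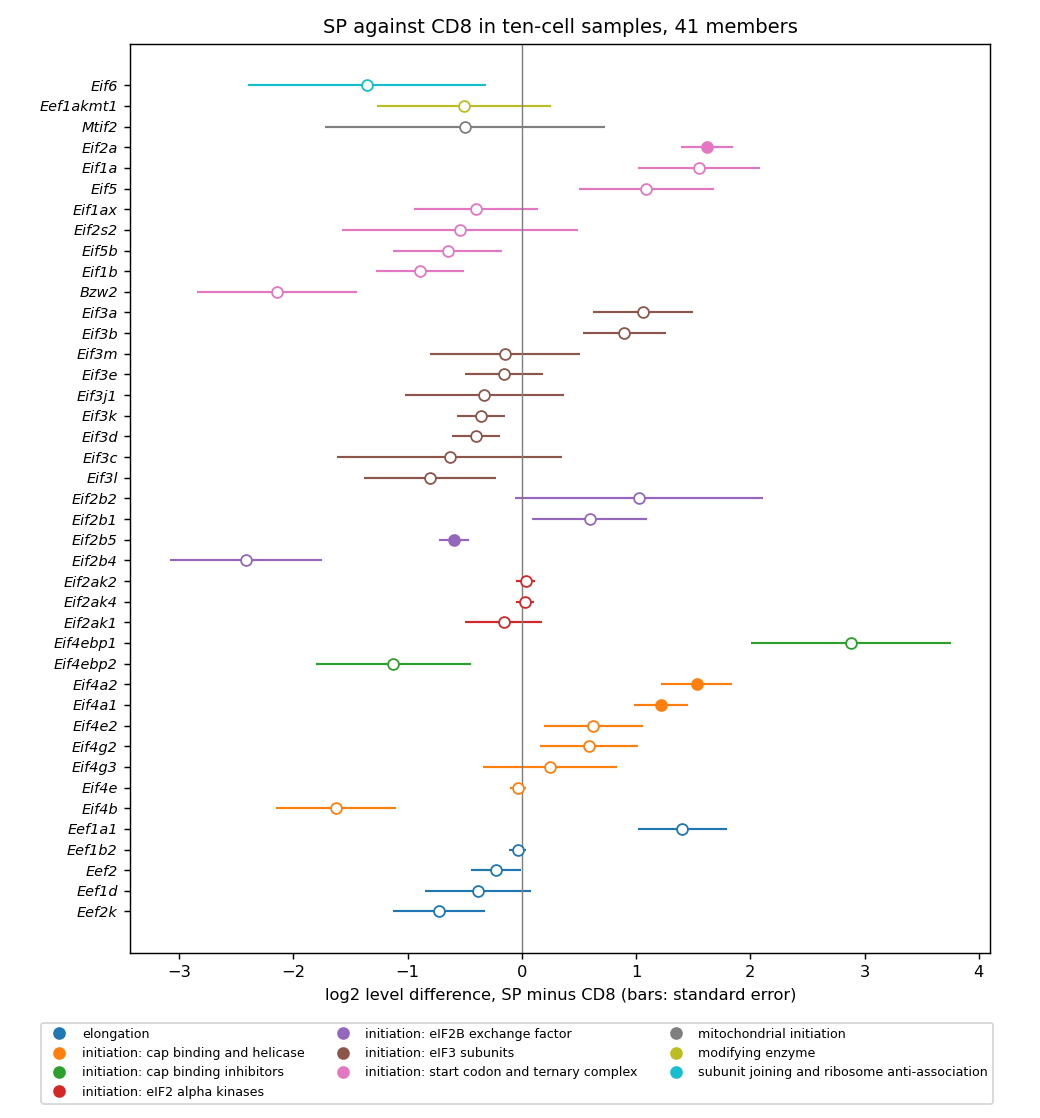
Difference in mean log2 level between SP and CD8 ten-cell samples (x axis; bars are standard errors of the limma fit) for the 41 members tested, coloured by role; filled points passed an adjusted p of 0.05. The filled points are Eif2a, Eif4a1 and Eif4a2 on the right and Eif2b5 on the left, and every role with more than 1 member has points on both sides of 0.

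Of 42 further genes of the pathway listed for comparison, 31 were on the array and 26 were tested. In SP against CD8, 2 passed, both higher in SP: Pdcd4, an inhibitor of the eIF4A helicase (10.98 to 11.71 in SP and 8.56 to 9.19 in CD8 samples, 2.33 ± 0.21, limma adjusted p = 0.0010), and Atf4, the transcription factor translated when eIF2 is phosphorylated (10.66 to 11.82 and 9.53 to 10.35, 1.27 ± 0.25, adjusted p = 0.034). Neither gene had overlapping populations. Trib3, a target of Atf4, differed by 2.19 ± 0.65 (adjusted p = 0.118), and Ddit3 by -0.01 ± 0.29. None of 8 genes of mTOR, MNK and S6 kinase signalling, 6 of termination and recycling, 2 of mitochondrial elongation or the 2 hypusine enzymes of eIF5A passed.

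Between LSP and USP cells, which differ in dye efflux, no member passed after adjustment. In the limma fit 0 of 41 members passed, beside 0.103% of all probe sets, and 2 members (4.88%) had an unadjusted p under 0.05, beside 5.99%. The comparison uses the same SP samples as that with CD8. With 3 samples a side the differences below carry standard errors of 0.24 to 1.2. Markers of other cells also differed: 4 of 4 granulocyte genes tested had a difference below 0, among them S100a9 (-2.10, limma adjusted p = 0.184) and Lcn2 (-2.66, 0.872), and their summed intensity was 1393 to 3966 in LSP and 3147 to 12231 in USP samples. That of the 3 erythroid genes on the array was 406 to 686 and 1964 to 2726. Of these, Hba-a1 was at -3.08 (limma adjusted p = 0.716) and Klf1 at 0.08, with the other sign. Mpo, Elane and Alas2 were at the floor in all SP samples, so Hba-a1 alone was the erythroid gene lower in LSP. None passed, and their part in the differences below was not tested.

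Eif4e2, a cap-binding protein that does not bind eIF4G and represses translation, had the largest difference: 10.92, 9.14 and 10.96 in LSP A, B and M, and 9.07, 9.06 and 8.36 in USP N, O and Z. The populations did not overlap, but LSP B was only just above the USP samples (1.5 ± 0.50, limma adjusted p = 0.707). The 2 arrays of LSP B differed by 2.77 in this gene, the most of any member, and 4 members differed there by over 1. Without LSP B the difference was 2.10 (adjusted p = 0.039), and on arrays without negative values, 1 sample of each population, it turned to -0.61 (0.209). Eif3d, which can itself bind the cap of some mRNAs, was at 10.32, 9.70 and 10.56 in LSP and 9.35, 9.01 and 9.27 in USP. It was higher in every LSP sample (0.98 ± 0.24, adjusted p = 0.390).

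Eif5, the factor that makes eIF2 hydrolyse its GTP at the start codon, was lower in every LSP sample, at 8.97, 9.41 and 9.37 against 10.05, 10.76 and 9.94 (-1.0 ± 0.68, limma adjusted p = 0.876). These 3 members were the ones whose populations did not overlap (7.32% of 41, beside 5.98% of all probe sets). The others with large differences overlapped. Eif4ebp1 differed by -1.38 ± 1.01, Eif3l by 1.21 ± 0.67, Eif3a by -1.10 ± 0.50, Eif1a by 0.81 ± 0.62, Eif2b1 by 0.72 ± 0.58 and Eif6 by -0.71 ± 1.2. With 1 sample left out these ran from -2.03 to -0.29 for Eif4ebp1, 0.67 to 2.0 for Eif3l, -1.59 to -0.56 for Eif3a, 0.23 to 1.27 for Eif1a, 0.07 to 1.24 for Eif2b1 and -1.67 to 0.30 for Eif6. The difference of Eef1akmt1 (-1.02 ± 0.88) came from USP N alone, at 10.06 where all other SP samples were at the floor. On arrays without negative values, Eif1a and Eif3l passed as higher in LSP and Eef1d and Eif4ebp1 as lower; in that fit 1 LSP and 1 USP sample are left, each assumed to vary like the CD8 samples. No pathway gene passed, of 26 tested.

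In single SP cells the factors were unevenly detected. At a log2 level of at least 9, Eef1a1, Eef1d and Eif3e were detected in all 12 cells (6% of members, beside 1.48% of all probe sets), 28 members in some cells and 19 in none (38%, beside 66.1%). The members' probe sets were chosen by level and all probe sets were not, so these shares are not like for like either. A cell held 9 to 18 of the 50 members, with a median of 11.5, and an SCE 13 to 20, with a median of 17, while 9.61% to 12% and 10.9% to 12.6% of all probe sets were detected. Members at the floor in ten-cell samples were also undetected here. Markers differed between the 2 kinds of array: of 3 erythroid genes on the array, the sum was 131 to 1373 in single cells and 2889 to 10782 in SCE, and that of 6 granulocyte genes 201 to 7056 and 424 to 6753. Of the erythroid genes, Hba-a1 was detected in 3 cells and all 5 SCE, and Alas2 and Klf1 in no cell and no SCE. The part of these markers in the results below was not tested.

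The spread between single cells was set against that between SCE. An exact permutation test of the mean absolute deviation from the group median, 1-sided for more spread in single cells, was run on each probe set that some single cell detected, and the share of the single-cell variance beyond that of the SCE, the biological proportion, was estimated by maximum likelihood. This estimate fits 1 mean to all arrays, and a proportion of 0 does not show that the SDs were equal. Of 31 members with a value 0 passed after adjustment, beside 0.546% of 4215 probe sets, and 7 (22.6%) had an unadjusted permutation p under 0.05, beside 12.5%. The proportion was at least 0.5 in 16 members (51.6%), beside 41.6%, with a median of 0.544 beside 0.355. A single cell at 9 or more admitted a probe set and an SCE could not, which favours spread in single cells. Mtif2, Bzw2, Eif2s2, Eif2b4, Eef2k and Eif5b, all with a proportion of at least 0.5, were detected in no SCE. The filter was the same for all probe sets, and these counts and medians do not show biological spread in the members.

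Eif3k, a peripheral subunit of eIF3, had the highest proportion, 0.990. Over the cells A to L it was at 12.8, 14.4, 13.2, 7.7, 14.4, 13, 11.7, 13.4, 14.0, 14.4, 8.4 and 13.5, and in the SCE at 13.8, 14.2, 13.5, 13.7 and 13.7. Cells D and K were under the detection level of 9, while the other 10 cells and all 5 SCE were well above it. The SD was 2.25 over the cells and 0.28 over the SCE (exact permutation p = 0.014, adjusted p = 0.267). Eef2 had a similar shape, at 5.3 in cell G, 6.2 in J and 8.9 in K, 9.6 to 12.2 in the other cells, and 10.5 to 11.9 in the SCE (proportion 0.953, exact permutation p = 0.139). Cell K was under the detection level of 9 in both genes, while D was so in Eif3k alone and G and J in Eef2 alone.

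Eif2a, the factor higher in SP than in CD8 pools, ranged widely between single cells, at 12.6, 12.1, 12, 11.8, 10.2 and 9.9 in cells F, C, I, H, J and L, and at 3.7 to 8.6 in the 6 others. The SCE lay in between, at 8.7 to 11.0, and the proportion was 0.923 (exact permutation p = 0.0034, adjusted p = 0.174, the lowest of the members). Eif4a1 varied little in either, at 7.4 to 10.1 in cells and 8.8 to 9.6 in SCE, with SDs of 0.73 and 0.32 (proportion 0.829, exact permutation p = 0.014). Its adjusted p was 0.271 with all SCE and 0.046 without SCE C, the highest of the 5. Eif4g2, a scaffold relative that lacks the eIF4E-binding part, was at 5.5 in cell H and up to 10.8 in B, and at 9.0 to 10.1 in SCE (proportion 0.926, exact permutation p = 0.037).

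**Figure D3:**
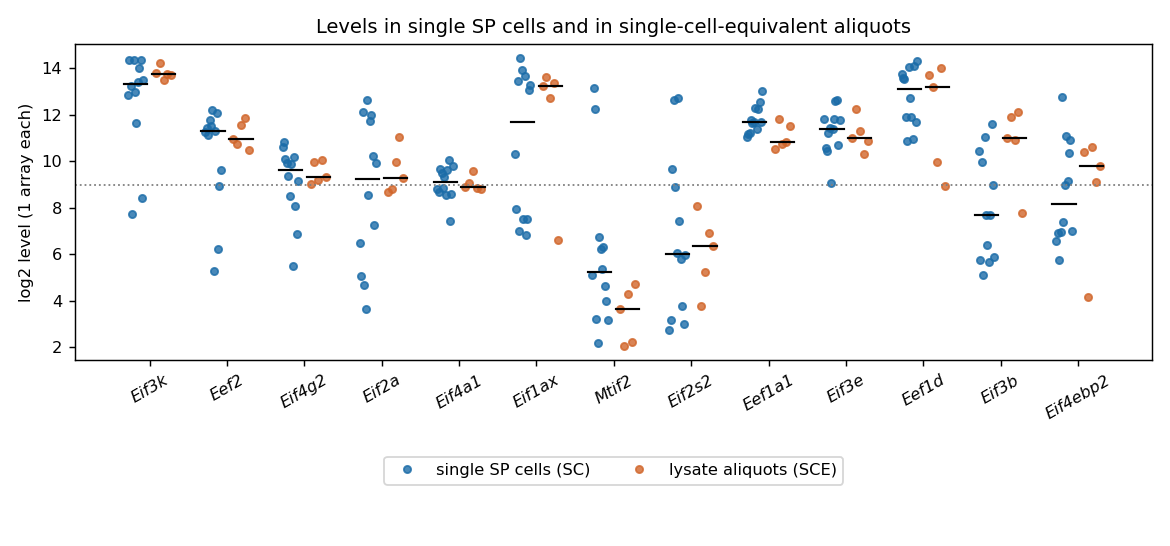
Log2 level (y axis, 1 point per array, black lines are medians, the dotted line is the detection level of 9) of 13 members in 12 single SP cells and 5 SCE. In Eif3k and Eef2 a few cells lie far below a tight set of SCE, in Mtif2 and Eif2s2 a few cells lie far above the SCE, and in Eef1d and Eif4ebp2 the SCE are at least as scattered as the cells.

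Other factors were low in most cells and strong in a few. Mtif2 was at 13.2 in cell B and 12.2 in C, at 2.2 to 6.7 in the other 10 cells, and at 2.1 to 4.7 in the SCE, of which none detected it (proportion 0.912, exact permutation p = 0.116). In ten-cell samples Mtif2 was above 9 in 5 of 6 SP samples and at the floor in USP N. Eif2s2 was at 12.7 in cell G, 12.6 in D and 9.7 in C, and at 8.9 or less elsewhere (proportion 0.814). Eif2b4 was detected in cell I alone, at 10.8, and Bzw2 in E and K, at 9.3 in both (proportions 0.746 and 0.846). No SCE detected Eif2s2, Eif2b4 or Bzw2, so that their SCE spread is that of signals under the detection level. The second probe set of Eif2s2 was detected in no cell.

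Other members also varied between SCE. Eif1ax was at 10.3 to 14.4 in 7 cells and at 6.8 to 7.9 in the other 5, and also fell from 12.7 to 13.6 in 4 SCE to 6.6 in SCE E, an aliquot of the same lysate. The proportion was 0.169 with all SCE and 0.993 without SCE E, where it was the one member to pass. The second probe set of Eif1ax was detected in 4 cells. Eif1b, a close relative of eIF1, ranged over 4.0 to 14.0 in cells and 4.9 to 13 in SCE (proportion 0.230, and 0.705 without SCE E). For Eef1d, Eef1a1, Eif3b, Eif3l and Eif4ebp2 the proportion was 0. It became 0.979 for Eif3b without SCE E, 0.927 for Eif4ebp2 without SCE B and 0.453 for Eif3l without SCE C, and with separate means for cells and SCE it was 0.511 for Eif3b, 0.237 for Eef1a1 and 0.117 for Eif3l. Eef1a1 was even in both, at 11.1 to 13 in cells and 10.5 to 11.8 in SCE, with SDs of 0.60 and 0.56, whereas Eef1d, detected in every cell at 10.9 to 14.3, fell to 10.0 and 8.9 in 2 SCE.

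**Figure D4:**
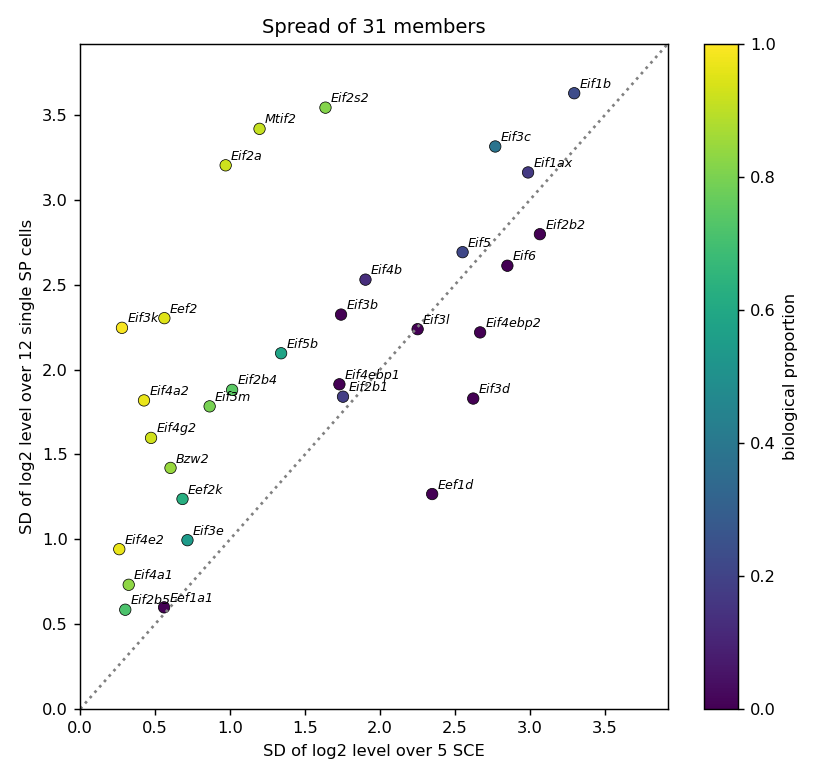
SD of the log2 level over 12 single SP cells (y axis) against that over 5 SCE (x axis) for the 31 members detected in a single cell, coloured by the biological proportion; the dotted line marks equal SDs. Eif3k, Eef2 and Eif2a stand far above the line and Eef1d and Eif3d below it.

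The subunits of eIF3, which work in 1 complex, differed in how many cells reached the detection level of 9. Of 10 subunits measured, single cells held 2 to 6 (median 4) and SCE 3 to 7 (median 6), beside 9.61% to 12% and 10.9% to 12.6% of all probe sets. Eif3e was detected in 12 cells, Eif3k in 10, Eif3l in 7, Eif3c and Eif3m in 6, Eif3b in 4 and Eif3d in 3, while Eif3a, Eif3f and Eif3j1 were detected in none. No SCE detected Eif3a or Eif3f either, and Eif3f was at the floor in all ten-cell samples. Each subunit is read by its own probes, so a level under 9 need not mean that the transcript was absent. Cell D, under 9 in Eif3k, reached that level in Eif3e and Eif3c alone. Eif3m was at 6.6 to 12 in cells and 8.9 to 10.8 in SCE (proportion 0.795, exact permutation p = 0.024), and Eif3e at 9.1 to 12.7 and 10.3 to 12.3 (0.544), while Eif3c, at 2.3 to 11.6 and 4.4 to 11.7 (0.384), was uneven in the SCE too. Single arrays moved these values: Eif3e had 0.109 without cell F and 0.865 without SCE B, and Eif3c 0.170 without cell A and 0.785 without SCE C. Eif5, at 3.8 to 11.2 and 4.3 to 10.5, had a proportion of 0.213, and of 0.046 without cell B and 0.723 without SCE A. Over the 16 members detected in at least 4 cells, the 120 pairwise Spearman correlations across the 12 cells had a median of 0.01 and ran from -0.70 to 0.70; the cells share array scaling, and these are descriptions.

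**Figure D5:**
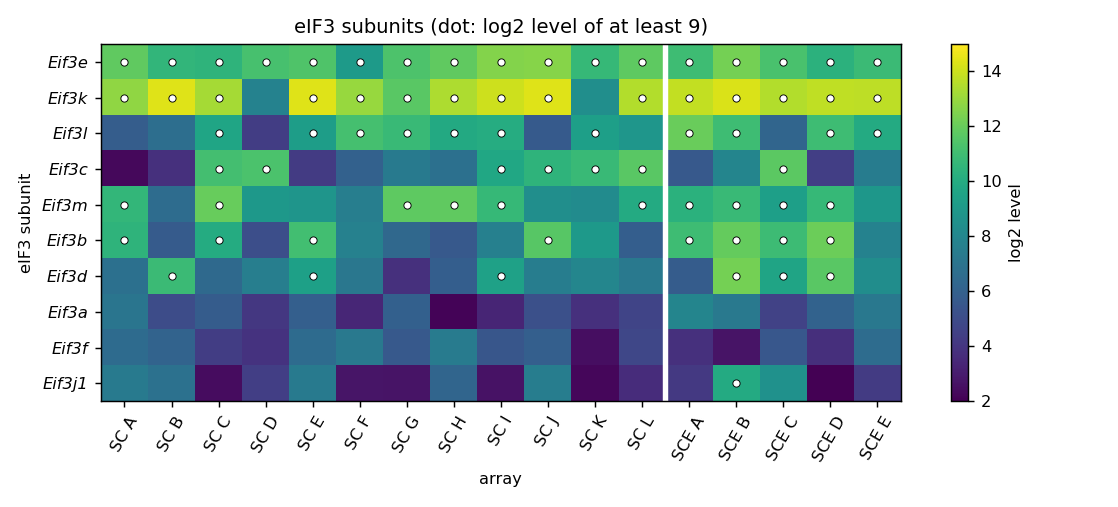
Log2 level (colour) of the 10 eIF3 subunits (rows) on the arrays of 12 single SP cells and 5 SCE (columns, parted by the white line); dots mark levels of at least 9. Eif3e is dotted in every column, Eif3k in all but cells D and K, Eif3a, Eif3f and Eif3j1 in no cell, and the others in differing sets of cells.

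In mean level no difference between single cells and SCE passed. In limma 0 of 50 passed, beside 0.0161% of 12422 probe sets, and 5 members (10%) had an unadjusted p under 0.05, beside 5.83%. All 5 were lower in single cells: Eif3b (-2.72 ± 1.07), Eif4ebp1 (-2.50 ± 0.93), Eif4b (-2.45 ± 1.15), Eif3a (-1.91 ± 0.72) and Eif4e2 (-1.13 ± 0.50). The last was at 7.2 to 10.5 in cells and at 9.3 to 9.8 in SCE, and Eif4a2, at 2.8 to 9.6 and 8.1 to 9.1, differed by -1.33 ± 0.80. Their limma adjusted p-values were 0.782 to 0.876. Of the 31 pathway genes on the array, 20 had a spread value, and the proportion was at least 0.5 in 8. Atf4 was detected in all 12 cells, and Pdcd4 in 8.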

How the data were processed

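The authors deposited 1 table of linear signal intensities for 35 arrays, each scaled to a like trimmed mean; how these differ from the RMA levels of the methods is not given in the sources used here. Control probe sets (66) were dropped, and genes were named from the platform annotation. Ten-cell intensities were logged (log2) with a floor of 7, which the choice of 1 probe set per gene also used, and duplicate arrays averaged; single-cell and SCE intensities were logged without a floor, and detection was set at 9. These levels were taken over from earlier work on these data, where they were set against the presence calls of the study. The members and gene lists were likewise chosen with earlier results of these data known. limma 3.58.1 in R 4.3.3 fitted 1 mean per group to 6823 probe sets, those over the floor on 1 or more ten-cell arrays (12422 in single cells), with Benjamini-Hochberg adjustment over all and a threshold of 0.05; SP is the mean of LSP and USP. limma p-values measure the spread between these samples, which may not hold that between mice. The spread test took each array's deviation from the median of its own group and enumerated all 6188 assignments of these 17 deviations to groups (smallest p 1.6e-04). Medians were not recomputed for each assignment. Both tests were also run on simulated, normally distributed values. The measured levels were not checked for that distribution, so these runs do not show how the tests behave on them. Named genes were members past a threshold, the 10 largest differences of each ten-cell comparison, the 10 highest and 5 lowest proportions among members detected in at least 4 cells, the 5 highest levels and 6 members in the study's lists; others are named in counts of few or as partners, chosen after their values were seen. Depth has no meaning for arrays; their number limits precision. Alternatives were floors of 6 and 8, detection at 8 and 10, filters, quantile normalization, array blocks, arrays without negative values, other estimators, all probe sets, unadjusted p and each sample left out.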

Additional observations from a re-analysis of the deposited data

Results flagged for a closer look

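Among the 5 SCE, 5 of 50 members had 1 aliquot that stood apart from the other 4 by more than Dixon's criterion (a gap of over 0.71 of the range). Of groups of normally distributed values the criterion marks about 1 in 20, and these levels were not checked for that. The share over all probe sets was not counted, so the count does not show that the members are unusual. Eif1ax was at 6.60 and Eif3b at 7.78 in SCE E, and Eif4ebp2 at 4.17 in SCE B, each far below the rest. Eif4e was at 8.83 in SCE A and Eif4ebp1 at 12.43 in SCE B, each far above the rest. Groups of 3 ten-cell samples and of 12 single cells were not examined in this way.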

How the results depend on the processing

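Of SP against CD8, the 3 members higher in SP became 1 with no filter on low levels and with quantile normalization (Eif2a in both), 8 at an unadjusted p, and 1 to 2 with a sample left out. The 1 member lower in SP became 0 with floors of 6 and 8 and with no filter, 3 with duplicate arrays as a random block and on arrays without negative values, 4 at an unadjusted p, and 0 to 1 with a sample left out. The 2 arrays of a sample are numbered, but the numbers are of duplicate arrays of 1 amplified pool: differences between array 2 and array 1 correlated between samples by a median r of -0.01 (5 of 36 pairs over 0.1), so samples were not paired. With the array number as replicate block, 2 members were higher (Eif4a2 and Eif4ebp1) and 3 lower (Bzw2, Eif2b4 and Eif4b) in SP. In that fit the adjusted p was 0.071 for Eif2a, 0.233 for Eif4a1 and 0.416 for Eif2b5, which then missed the threshold. In LSP against USP, 0 members higher became 2 on arrays without negative values and at an unadjusted p, and 0 to 1 with a sample left out; 0 lower became 2 on arrays without negative values and stayed 0 with any sample left out, and the replicate block left both at 0. Eif4e2 turned to -0.61 and Eif6 to 0.78 on arrays without negative values, and Eif6 ran from -1.67 (without USP Z) to 0.30 (without LSP M), with 0.12 without USP N. In mean level, 0 of 50 passed in single cells against SCE whichever array was left out, while 5 were lower at an unadjusted p. In spread, 0 to 1 members passed with an array left out, 14 to 18 had a proportion of at least 0.5, and 2 to 9 an unadjusted p under 0.05 in place of 7 (2 without cell H, 4 without G or L); dropping the middle SCE, whose deviation is 0 by construction, left 3. The other counts stayed within 1.5 times. The cause was not tested in any of these cases.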
